A study of Mus musculus with 10 samples.

Results

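The genes described here are 33 interferon-stimulated genes, transcripts that interferons induce in most mouse tissues. They were chosen by name and found by symbol in the deposited table, where each of the 33 symbols had a single row among 54256. The RNA came from the infundibulum, the funnel-shaped end of the oviduct that faces the ovary and receives the ovulated egg. The mice were of the C57BL/6 strain, aged 8 to 10 weeks, and received either saline or rmPRL, recombinant murine prolactin, over 7 days, with 5 libraries in each group. The titles of the saline libraries call them WT (wild type), and those of the rmPRL libraries name no genotype. A library held the 4 infundibula of 2 animals, so the replicates were separate pools and p-values measure the spread between pools. The estrous stage given was diestrus for rmPRL library 2 and proestrus for the other 9 libraries.

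Interferons are secreted proteins that cells release when they sense viral or misplaced nucleic acid. Type I interferons bind a receptor made of Ifnar1 and Ifnar2, whose kinases Jak1 and Tyk2 phosphorylate transcription factors that include Stat2, and Stat2 acts with Irf9 in a complex that binds a sequence called the interferon-stimulated response element at its target genes. In the female reproductive tract of the mouse, epithelial cells are known to make interferon epsilon (Ifne) without infection. Prolactin signals through a receptor of another family, mainly to Jak2 and Stat5. The question of the comparison was which transcripts of the infundibulum differed after 7 days of rmPRL.

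Values are TPM, a unit that divides reads by transcript length and brings each library to the same sum, so levels can be set side by side between genes. The stated depth was 80 M reads per library, but TPM carry no depth, and the counting error behind a value cannot be given. The columns summed to 999445 to 999607. In bulk tissue, fewer cells of a type and less RNA per cell cannot be told apart. Epithelial markers were abundant in every library, and 7 of them (Epcam, Cdh1, Krt8, Krt18, Ovgp1, Pax8 and Foxj1) summed to 9791 to 12659 TPM in saline and 6840.2 to 11403 TPM in rmPRL. Saline library 4 and rmPRL library 2 stood apart by ovarian luteal and theca markers. The 6 genes of that list (Cyp11a1, Star, Hsd3b1, Lhcgr, Cyp17a1 and Akr1c18) reached a sum of 364 TPM in the former and 418 TPM in the latter, and summed to 6.84 to 57.7 TPM in the other libraries.

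No interferon-stimulated gene passed the threshold between rmPRL and saline, and the members' highest and lowest values lay mostly among the saline libraries. Of 33 members, 32 had at least 1 TPM in at least 5 of 10 libraries and were tested, and 0 of 32 passed an adjusted p of 0.05. The test was limma, two-sided, with Benjamini-Hochberg adjustment over all 16131 genes, and 0.0248% of those genes passed, 0.0186% as higher and 0.00620% as lower. At an unadjusted p under 0.05, 0 members were higher, against 6.14% of all genes tested, and 3 were lower in rmPRL (Oasl2, Ifih1 and Parp14). Those 3 are 9.38% of the tested members, near the 9.91% of all genes tested that were lower at that level (16.0% in either direction). Of all genes past that level, 61.7% were lower with TPM as deposited and 45.2% after TMM scaling. By the sign of the difference, 27 of 32 members had a lower and 5 a higher mean in rmPRL, where 56.5% of all genes tested were lower. After TMM scaling 24 members and 49.7% of all genes were lower, and after quantile normalization 25 members and 51.6% of all genes. The median log2 difference was -0.088 over the members and -0.026 over all genes tested. Without saline library 4 the balance was 18 lower and 13 higher of 31 tested members, with a median of -0.0077. In that setting 55.3% of all genes tested were lower, with a median of -0.022. Without rmPRL library 2, the one labelled diestrus, 29 members were lower and 2 higher of 31, with a median of -0.13. There 57.6% of all genes tested were lower, with a median of -0.026.

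**Figure D1:**
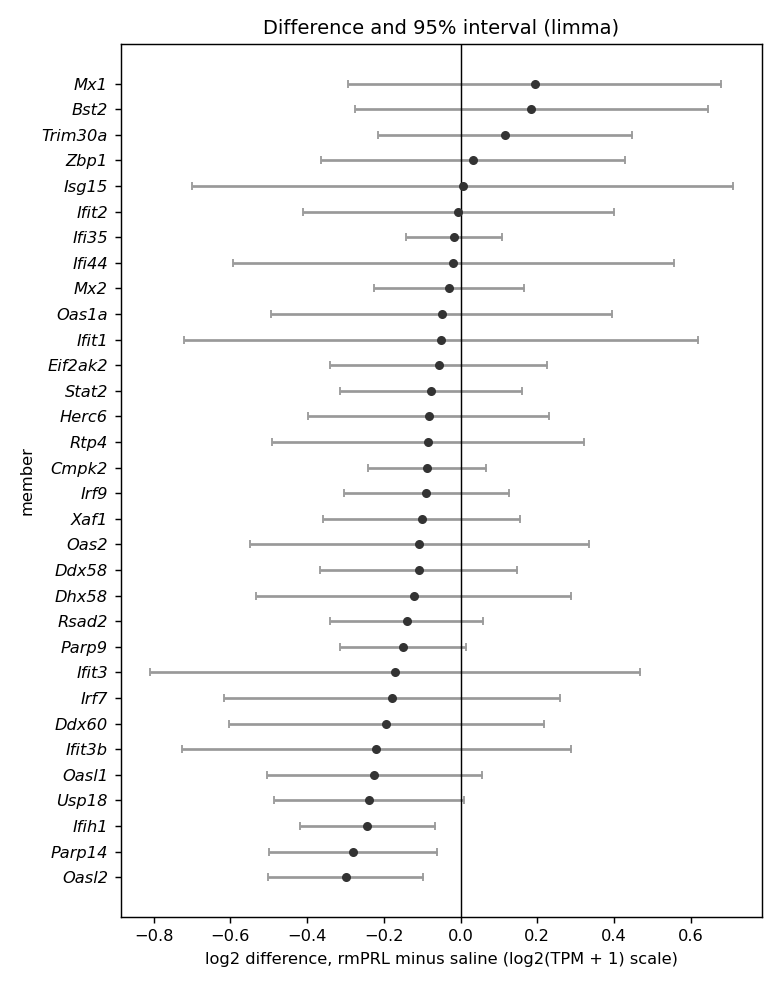
Log2 difference (rmPRL minus saline, log2(TPM + 1) scale, x axis) of each of the 32 tested members (y axis), as a point with its 95% interval from limma. The points run from -0.30 for Oasl2 to 0.19 for Mx1, and 29 of the 32 intervals include 0.

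The core searched for was GAAA, any 2 bases, GAAA, as found in the response element, which reads TTTC, any 2 bases, TTTC on the other strand. Both orientations were searched from 250 bases before to 50 bases after the annotated starts in RefSeq (build GRCm38.p6). Windows were found for 24 of the 33 members, and 14 of those 24 (58.3%) held a match, against 1079 of 27025 genes (3.99%) in the whole table and 3.68% of the tested genes in it. At least 2 matches, overlapping ones counted separately, stood in the windows of 7 members and in 0.266% of all genes. Mx1, Mx2, Oas2, Rtp4, Parp9, Parp14, Usp18, Dhx58 and Zbp1 were the members outside the table. A match is a description of the letters, and no match says only that the letters are not in the window. The windows of 6 members are shown, chosen after the values were seen, with the matches in capitals. Isg15, Ifit1, Ifit3 and Ifit3b were all highest in saline library 4, Ifih1 was the only member whose groups did not overlap, and Cmpk2 is shown as a window without a match. The highest library was saline 4 for 10 of the 14 members with a match and for 6 of the 10 without one.
Isg15 (chr4:156200769-156201068, minus strand): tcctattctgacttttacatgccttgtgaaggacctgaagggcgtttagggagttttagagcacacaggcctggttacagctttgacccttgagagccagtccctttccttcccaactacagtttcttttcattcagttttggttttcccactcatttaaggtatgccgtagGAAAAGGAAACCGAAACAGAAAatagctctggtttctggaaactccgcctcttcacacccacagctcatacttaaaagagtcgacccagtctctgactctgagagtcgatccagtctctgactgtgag
Ifit1 (chr19:34640639-34640938, plus strand): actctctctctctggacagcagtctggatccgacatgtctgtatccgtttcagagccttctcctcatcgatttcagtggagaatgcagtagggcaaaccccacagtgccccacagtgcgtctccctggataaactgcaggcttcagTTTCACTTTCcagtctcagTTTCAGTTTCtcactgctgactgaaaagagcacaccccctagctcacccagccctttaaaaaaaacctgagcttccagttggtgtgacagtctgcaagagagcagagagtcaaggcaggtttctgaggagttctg
Ifit3 (chr19:34583279-34583578, plus strand): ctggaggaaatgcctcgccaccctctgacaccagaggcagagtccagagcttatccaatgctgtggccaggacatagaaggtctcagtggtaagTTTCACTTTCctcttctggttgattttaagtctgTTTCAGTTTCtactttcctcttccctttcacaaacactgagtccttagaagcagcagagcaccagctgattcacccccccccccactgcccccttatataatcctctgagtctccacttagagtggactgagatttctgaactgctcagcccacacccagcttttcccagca
Ifit3b (chr19:34607707-34608006, plus strand): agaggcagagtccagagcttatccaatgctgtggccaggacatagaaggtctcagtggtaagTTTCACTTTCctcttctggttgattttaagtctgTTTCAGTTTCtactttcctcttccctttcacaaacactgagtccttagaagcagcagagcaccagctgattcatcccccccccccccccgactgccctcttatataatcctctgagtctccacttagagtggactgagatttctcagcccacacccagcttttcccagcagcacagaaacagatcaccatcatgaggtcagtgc
Ifih1 (chr2:62646206-62646505, minus strand): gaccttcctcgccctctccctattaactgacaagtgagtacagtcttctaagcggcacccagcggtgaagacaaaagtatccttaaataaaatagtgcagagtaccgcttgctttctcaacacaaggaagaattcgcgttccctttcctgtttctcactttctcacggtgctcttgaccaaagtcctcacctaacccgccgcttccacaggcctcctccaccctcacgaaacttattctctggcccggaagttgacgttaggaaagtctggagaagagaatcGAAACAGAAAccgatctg
Cmpk2 (chr12:26468965-26469264, plus strand): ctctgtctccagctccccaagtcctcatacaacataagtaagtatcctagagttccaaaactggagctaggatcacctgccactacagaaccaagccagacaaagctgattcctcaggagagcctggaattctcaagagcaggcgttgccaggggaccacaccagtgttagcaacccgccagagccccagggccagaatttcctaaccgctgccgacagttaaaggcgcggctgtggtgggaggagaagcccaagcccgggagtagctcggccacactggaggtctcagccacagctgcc
In Isg15 the 3 matches overlap in a run from base -78 to base -57 relative to the start. Matches begin at -104 and -85 in Ifit1, at -156 and -122 in Ifit3, and at -188 and -154 in Ifit3b. The match of Ifih1 lies after the start, at bases 33 to 42 of the transcript.

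**Figure D2:**
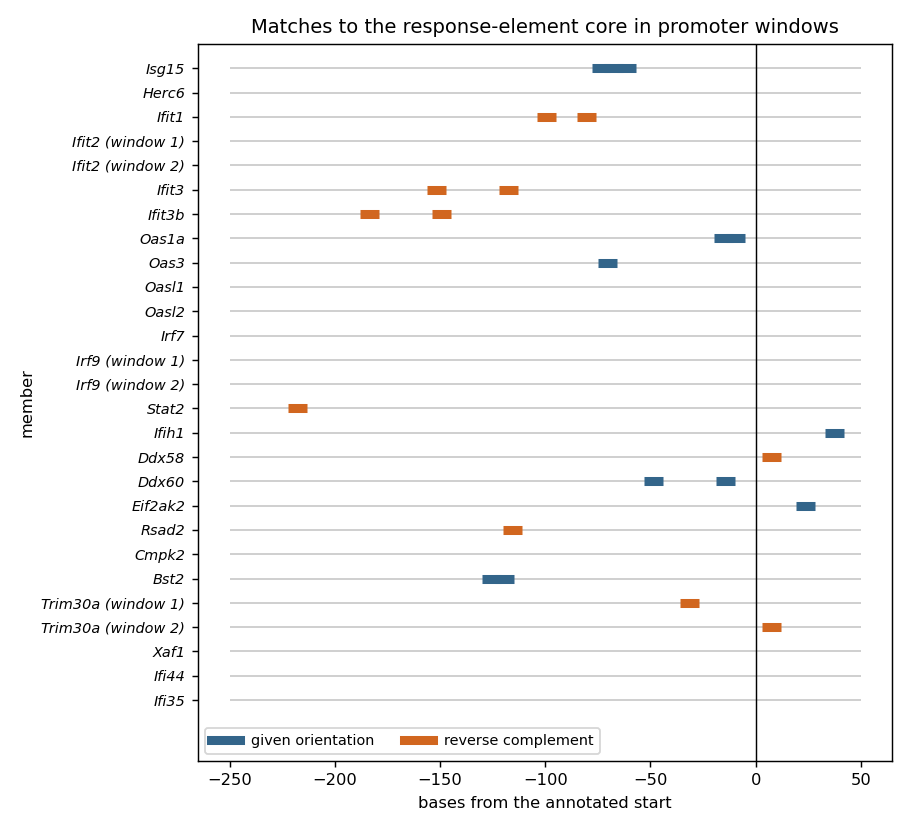
Matches to the response-element core in the promoter windows of 24 members, by distance in bases from the annotated start (x axis), each line a window and each bar a match in the given orientation or as its reverse complement. Matches stand in windows of 14 members, mostly before the start, and 10 members have none.

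By level, the list spanned from traces to abundant transcripts. Bst2, Oasl2 and Usp18 had the highest means over 10 libraries, at 157, 109.6 and 71.9 TPM. In all, 2 members had means of at least 100 TPM, 14 of 10 to 100 TPM, 5 of 5 to 10 TPM and 12 under 5 TPM. Oas3 was lowest, at 0.0593 to 0.719 TPM, and was the member left out of the gene test. Its groups overlapped, and the log2 difference of -0.022 gave p = 0.913 in an exact permutation test, two-sided, over 252 assignments.

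The libraries differed from each other in these genes as a group. Saline library 4 was above the 10-library median in 33 of 33 members and held the highest value of 21, where 9.29% of all genes tested were highest in that library. Saline libraries 3 and 2 held the lowest values of 12 and 9 members, against 13.5% and 13.6% of all genes tested. Highest and lowest values thus both fell in the saline group for 21 members, which held for 20.9% of all genes tested. Saline library 1 was above the median in 28 members and rmPRL library 2 in 25, where 43.4% and 46.9% of all genes tested were. At the other end, rmPRL library 3 was above it in 6 members and saline library 3 in 5, against 50.2% and 49.5% of all genes. The mean deviation of the tested members from their 10-library means, on the log2(TPM + 1) scale, was 0.48 in saline library 4, 0.17 in saline library 1 and 0.12 in rmPRL library 2, and -0.23 and -0.19 in saline libraries 3 and 2. Over all genes tested that mean lay between -0.028 and 0.036 in every library.

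**Figure D3:**
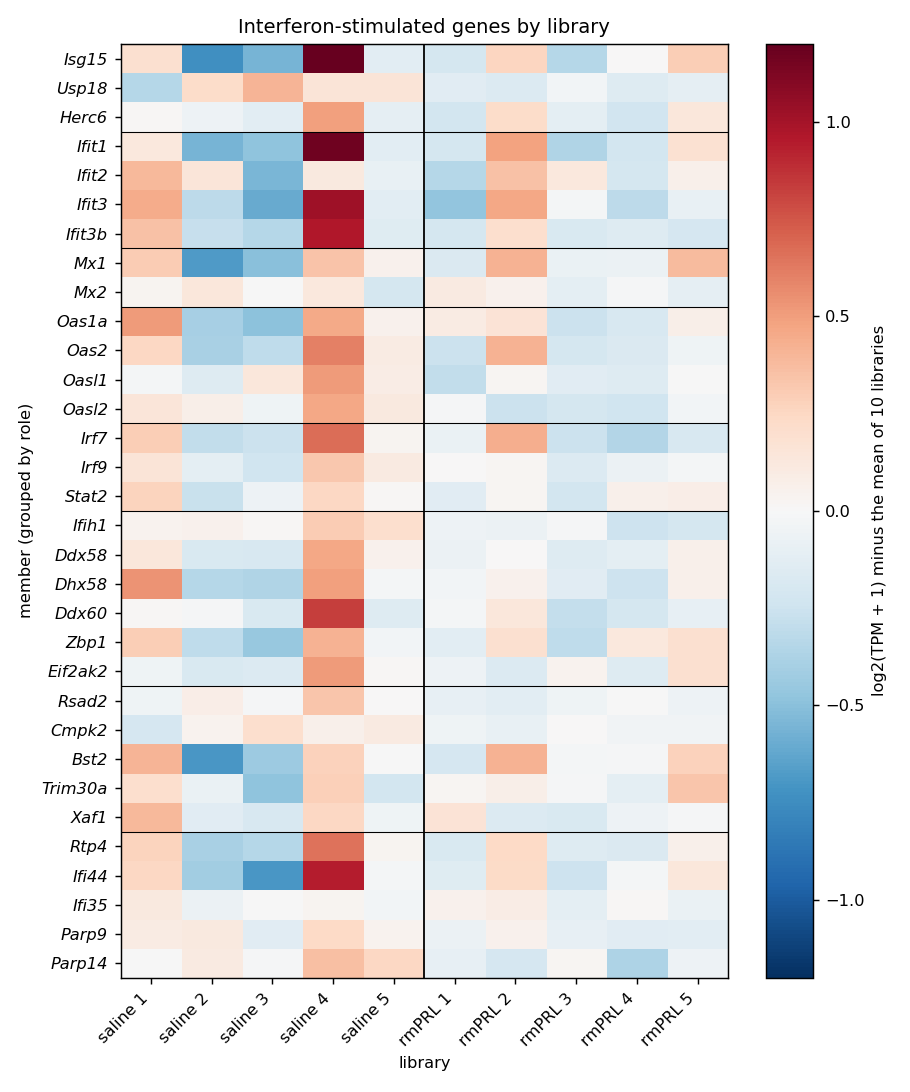
Deviation of log2(TPM + 1) from each member's mean over 10 libraries (colour, red above and blue below), with the 32 tested members in rows by role and the libraries in columns, saline left of the vertical line. The column of saline 4 is red in nearly every row, those of saline 2 and 3 are mostly blue, and Usp18 and Cmpk2 depart from the other rows.

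The spread between replicates was wider in saline. The SD of log2(TPM + 1) was larger in saline than in rmPRL for 31 of 32 tested members, against 56.2% of all genes tested. The median SD of the members was 0.299 in saline and 0.159 in rmPRL. Without saline library 4 the count was 23 of 32, against 55.8% of all genes tested, and the median SD in saline was 0.271. Without saline library 1 the count was 31 of 32.

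Markers of other cells were set beside this order of the libraries. Luteal and theca markers were high in saline library 4 and rmPRL library 2, and the part of those markers in the levels of the interferon-stimulated genes was not tested. Saline library 1, the next highest in the members after saline library 4, had the lowest luteal and theca sum of the saline group, at 12.5 TPM. Saline library 1 held the highest values of 4 of 4 neutrophil markers and 5 of 5 erythrocyte markers, with summed levels of 9.87 and 337 TPM. The neutrophil sums were 0.544 to 9.87 TPM in saline and 2.65 to 5.30 TPM in rmPRL, the erythrocyte sums 113 to 337 and 209.6 to 283 TPM, and their part in the result was not tested. Macrophage and monocyte markers deviated in the same direction as the members in several libraries, with mean log2 deviations of 0.25 in saline library 1, 0.30 in rmPRL library 2, and -0.17 and -0.37 in saline libraries 2 and 3. The direction was opposite in saline library 4, at -0.25 against 0.48 for the members, and in rmPRL library 3, at 0.16 against -0.13. It also differed in rmPRL library 4, at 0.0066 against -0.13. Fibroblast and endothelial markers shared the members' direction in saline libraries 1, 2 and 3 and rmPRL library 2 as well. In saline library 4 their mean deviations were -0.11 and 0.058. Fibroblast markers deviated opposite to the members in rmPRL libraries 3 and 4, at 0.21 and 0.30 against -0.13 and -0.13. Endothelial markers did so in rmPRL library 4, at 0.050. None of the 13 macrophage and monocyte markers was highest in saline library 4, where their sum was 182 TPM. That sum ranged from 169 to 277 TPM in saline and from 212 to 296 TPM in rmPRL. Between the groups, 12 of 13 of these markers had a higher mean in rmPRL (11 without saline library 4 and rmPRL library 2), while most members had a lower one, and their part in the result was not tested. Siglech and Ccr9, which mark plasmacytoid dendritic cells, known as strong producers of interferon alpha, were at or under 0.650 and 0.107 TPM in all libraries. Of the 8 markers on that list 5 were too low to test, and the other 3 (Klk1, Pacsin1 and Tcf4) are also expressed outside these cells. Across all marker lists 0 genes passed the threshold over all genes (limma). At an unadjusted p under 0.05, 6 of 13 macrophage and monocyte markers and 1 of 6 fibroblast markers were higher in rmPRL. So were 1 of 5 endothelial markers, 1 of 3 tested plasmacytoid dendritic cell markers and the pan leukocyte marker Ptprc. At that level 3 of 7 epithelial markers were lower. Among all genes tested, 6.14% were higher and 9.91% lower at that level. By sign, 6 of 6 fibroblast and 5 of 5 endothelial markers had higher means in rmPRL, also under the 3 other scalings (3 of 5 endothelial markers without saline library 4 and rmPRL library 2), and 6 of 7 epithelial markers had lower means. The median log2 differences were 0.33 for macrophage and monocyte, 0.65 for fibroblast, 0.17 for endothelial and -0.19 for epithelial markers, and the part of these cell types in the members' differences was not tested.

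**Figure D4:**
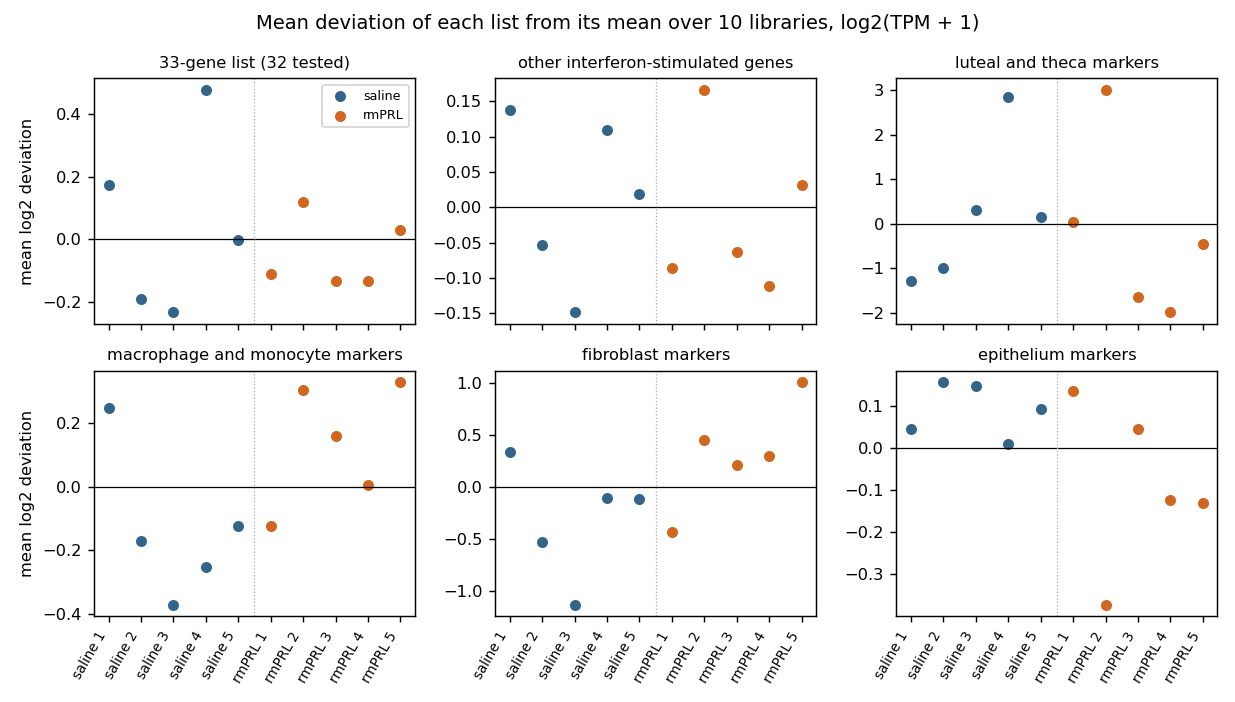
Mean deviation from the 10-library mean on the log2(TPM + 1) scale (y axis, its own scale in each panel) of the tested members and of 5 other lists in each library (x axis, blue saline, orange rmPRL). The members peak in saline 4, at 0.48, and the other interferon-stimulated genes in rmPRL 2, at 0.17. Luteal and theca markers peak in saline 4 and rmPRL 2, and macrophage and fibroblast markers in rmPRL 5.

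Among the genes of the ISG15 system, Isg15 and Usp18 ordered the libraries differently. Isg15 encodes a ubiquitin-like protein that is attached to other proteins (ENSMUSG00000035692.7, GRCm38 chromosome 4, 156199424 to 156200818, minus strand). It was at 17.7, 8.84, 10.1, 36.8 and 14.0 TPM in saline libraries 1 to 5 and 13.1, 18.6, 11.9, 15.4 and 19.1 TPM in rmPRL libraries 1 to 5. Saline library 4 was highest, saline libraries 2 and 3 were lowest, and all rmPRL values lay between them, so the groups overlapped (log2 difference 0.0052, SE 0.320, limma adjusted p = 0.995). The 95% interval of that difference ran from -0.70 to 0.71, and without saline library 4 the difference was 0.31.

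Usp18 removes Isg15 from proteins and also restrains signalling at the interferon receptor (ENSMUSG00000030107.10, GRCm38 chromosome 6, 121245906 to 121270917, plus strand). It was at 56.0, 82.8, 94.9, 79.5 and 79.0 TPM in saline libraries 1 to 5 and 64.6, 63.4, 69.4, 63.6 and 66.0 TPM in rmPRL libraries 1 to 5. Here saline library 3 was highest and saline library 1 lowest, and 4 saline libraries lay above all rmPRL libraries. The means were 78.4 ± 14.1 TPM over the saline libraries and 65.4 ± 2.43 TPM over the rmPRL libraries (SD, n = 5), a difference that missed the threshold (log2 difference -0.24, SE 0.113, limma adjusted p = 0.325). Without saline library 1 the limma adjusted p was 0.0753. Per library, the TPM of Usp18 was 2.16 to 9.41 times that of Isg15, lowest in saline library 4 and highest in saline libraries 2 and 3. Herc6, the main Isg15 ligase of the mouse, was at 4.54 ± 1.09 TPM over the saline libraries and 4.21 ± 0.762 TPM over the rmPRL libraries (SD, n = 5) and also highest in saline library 4, at 6.46 TPM (log2 difference -0.083, SE 0.143, limma adjusted p = 0.792).

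**Figure D5:**
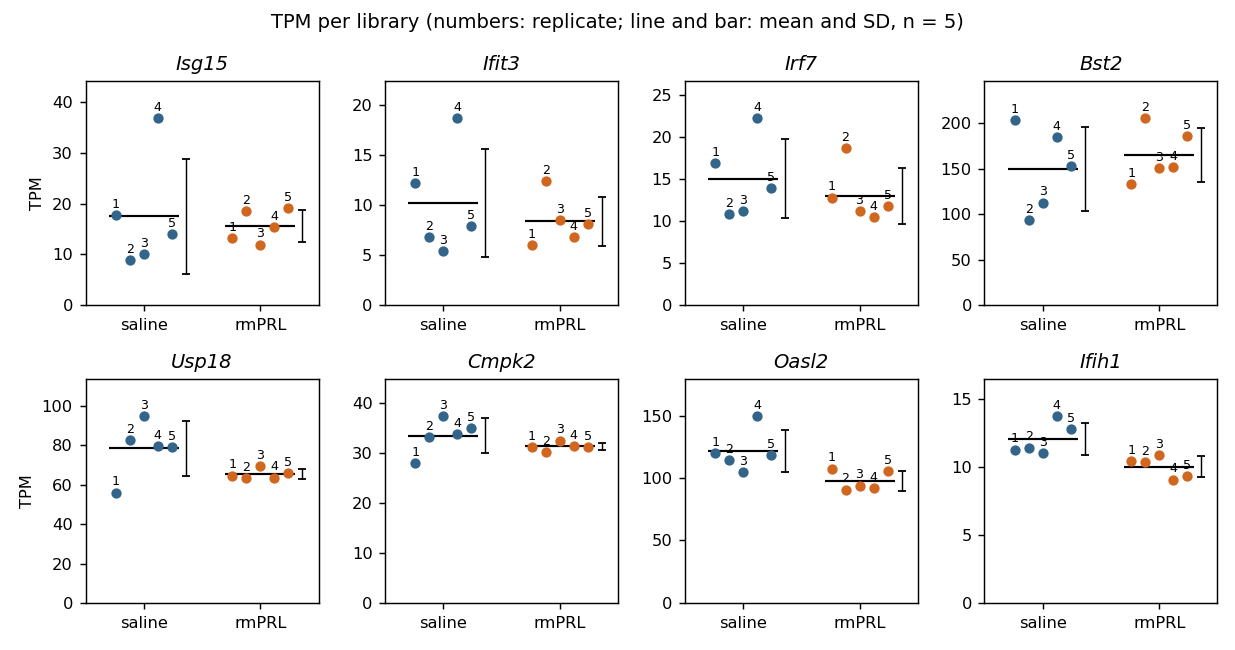
TPM (y axis, from 0) of 8 members in each library, numbered by replicate, with the mean as a line and the SD as a bar (n = 5). Isg15, Ifit3 and Irf7 are highest in saline 4, Bst2 is high in saline 1 and rmPRL 2, Usp18 and Cmpk2 are lowest in saline 1, and the groups do not overlap for Ifih1.

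The IFIT genes, which bind viral RNA and block its translation, lie side by side on chromosome 19. Ifit1 was at 4.09, 2.18, 2.34, 9.51 and 3.27 TPM in saline libraries 1 to 5 and 3.04, 5.51, 2.64, 3.02 and 4.30 TPM in rmPRL libraries 1 to 5. It stood at 3.13 times the median of the other libraries in saline library 4, and rmPRL library 2 was the next highest. The groups overlapped (log2 difference -0.050, SE 0.304, limma adjusted p = 0.947), and without saline library 4 the difference turned positive, at 0.24.

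Ifit3, a partner that stabilises Ifit1 in human cells (ENSMUSG00000074896.3, GRCm38 chromosome 19, 34583531 to 34588731, plus strand), was at 12.2, 6.78, 5.38, 18.6 and 7.88 TPM in saline libraries 1 to 5 and 5.99, 12.4, 8.51, 6.81 and 8.09 TPM in rmPRL libraries 1 to 5. Its neighbour Ifit3b (ENSMUSG00000062488.9, GRCm38 chromosome 19, 34607970 to 34613401, plus strand) was at 3.59, 1.99, 1.84, 6.03 and 2.26 TPM in saline libraries 1 to 5 and 2.11, 3.16, 2.18, 2.24 and 2.13 TPM in rmPRL libraries 1 to 5. Both were highest in saline library 4 and lowest in saline library 3, and neither difference passed the threshold (log2 differences -0.17 and -0.22, limma adjusted p = 0.787 and 0.642). The transcripts of this pair match at 98.0% of 1697 aligned bases, and 31.7% of the 100-base windows of Ifit3 and 27.4% of those of Ifit3b occur in the other, so reads could be split between them and their separate values are uncertain. The ratio of Ifit3 to Ifit3b ran from 2.84 to 3.92 over the libraries, and shared reads could themselves hold it steady. Ifit2, the remaining member of the family, was at 3.16 ± 0.944 TPM over the saline libraries and 3.11 ± 0.778 TPM over the rmPRL libraries (SD, n = 5) and highest in saline library 1 (log2 difference -0.0058, SE 0.185, limma adjusted p = 0.989). All 4 IFIT genes had lower means in rmPRL with TPM as deposited; Ifit2 turned to the higher side after TMM, quantile and mitochondria-free scaling, and without saline library 4 only Ifit3b was lower.

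The Mx genes encode dynamin-like GTPases against viruses, and laboratory strains such as C57BL/6 carry a Mx1 allele with an internal deletion. The gene annotation types Mx2 as a polymorphic pseudogene. Mx1 was at 1.53, 0.281, 0.449, 1.60 and 1.12 TPM in saline libraries 1 to 5 and 0.818, 1.74, 0.946, 0.955 and 1.68 TPM in rmPRL libraries 1 to 5. It had the largest positive log2 difference of the members, from low levels and with overlapping groups (log2 difference 0.19, SE 0.222, limma adjusted p = 0.675). Mx2, next to Mx1 on chromosome 16, was at 7.26, 7.90, 7.08, 7.82 and 6.01 TPM in saline libraries 1 to 5 and 7.72, 7.40, 6.48, 7.04 and 6.50 TPM in rmPRL libraries 1 to 5. It was among the most even of the list, at 1.31 times from the lowest to the highest library, with no peak in saline library 4 (log2 difference -0.030, SE 0.0884, limma adjusted p = 0.881).

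The OAS proteins make 2-5A, the messenger that activates the nuclease RNase L, and the OAS-like genes are their relatives. Oas1a was at 7.56, 3.54, 3.28, 7.22 and 5.20 TPM in saline libraries 1 to 5 and 5.41, 5.71, 4.02, 4.24 and 5.31 TPM in rmPRL libraries 1 to 5. Saline libraries 1 and 4 were the highest, and saline libraries 2 and 3 the lowest, with the rmPRL values inside that range (log2 difference -0.049, SE 0.202, limma adjusted p = 0.918). Of the 100-base windows of Oas1a, 40.9% also occur in Oas1g, so its level is uncertain. Oas2 was at 3.27, 1.75, 1.91, 4.48 and 2.85 TPM in saline libraries 1 to 5 and 2.01, 3.80, 2.11, 2.19 and 2.48 TPM in rmPRL libraries 1 to 5, highest in saline library 4 and, within rmPRL, in library 2 (log2 difference -0.11, SE 0.201, limma adjusted p = 0.808).

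Oasl2, the OAS-like gene with the second highest level of the list (ENSMUSG00000029561.17, GRCm38 chromosome 5, 114896936 to 114912234, plus strand), had the largest difference and the smallest p of the members. It was at 119.9, 114, 105, 149.5 and 118 TPM in saline libraries 1 to 5 and 108, 90.7, 93.9, 91.8 and 106 TPM in rmPRL libraries 1 to 5. Libraries 1 and 5 of rmPRL exceeded the lowest saline library, number 3, and the other 3 lay below all saline libraries. The means were 121 ± 16.8 TPM over the saline libraries and 97.9 ± 8.06 TPM over the rmPRL libraries (SD, n = 5), and the log2 difference was -0.30, with a 95% interval of -0.50 to -0.10, past no threshold after adjustment (SE 0.0918, limma adjusted p = 0.208). Across single libraries left out the difference ran from -0.35 to -0.22. Oasl1 was at 4.55 ± 1.02 TPM over the saline libraries and 3.71 ± 0.405 TPM over the rmPRL libraries (SD, n = 5, log2 difference -0.23, SE 0.127, limma adjusted p = 0.390). The 4 tested OAS genes had lower means in rmPRL, also under the 3 other scalings, and without saline library 4 it was 2 of them.

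The transcription factors of the response all had lower means in rmPRL, also under the 3 other scalings, and none passed the threshold. Irf7, the factor that amplifies interferon production, was at 16.9, 10.9, 11.2, 22.2 and 13.9 TPM in saline libraries 1 to 5 and 12.8, 18.7, 11.2, 10.4 and 11.8 TPM in rmPRL libraries 1 to 5. Saline library 4 and rmPRL library 2 were the highest of their groups (log2 difference -0.18, SE 0.199, limma adjusted p = 0.665). Irf9, which recognises the response element, was at 31.4, 25.9, 23.6, 35.4 and 30.3 TPM in saline libraries 1 to 5 and 28.2, 28.5, 25.1, 26.7 and 27.7 TPM in rmPRL libraries 1 to 5, with groups that overlapped (log2 difference -0.090, SE 0.0979, limma adjusted p = 0.656). Stat2, its partner, was at 24.5, 16.6, 19.3, 24.3 and 20.4 TPM in saline libraries 1 to 5 and 18.4, 20.6, 17.2, 21.1 and 21.5 TPM in rmPRL libraries 1 to 5. Saline libraries 1 and 4 were the highest for Stat2, and its groups overlapped (log2 difference -0.076, SE 0.108, limma adjusted p = 0.741). The ratio of Stat2 to Irf9 lay between 0.641 and 0.819 in the libraries.

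Ifih1 was the member whose groups separated. It encodes MDA5, a helicase that senses long double-stranded RNA (ENSMUSG00000026896.14, GRCm38 chromosome 2, 62595798 to 62646255, minus strand), and was at 11.3, 11.4, 11.1, 13.8 and 12.8 TPM in saline libraries 1 to 5 and 10.5, 10.4, 10.9, 9.09 and 9.36 TPM in rmPRL libraries 1 to 5. Every rmPRL library lay below every saline library, which held for 1 of 32 tested members and for 1.57% of all genes tested. The reverse order, rmPRL above, held for 0 members and 1.49% of all genes, which makes 3.07% in either direction. The means were 12.1 ± 1.16 TPM over the saline libraries and 10.0 ± 0.772 TPM over the rmPRL libraries (SD, n = 5), and the difference did not pass the threshold over all genes (log2 difference -0.24, SE 0.0802, limma adjusted p = 0.221). Its 95% interval ran from -0.42 to -0.067, and with single libraries left out the difference ran from -0.27 to -0.20. The lowest limma adjusted p over the alternatives was 0.0568, with array weights.

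The sister RNA helicases did not separate. Ddx58 encodes RIG-I, which senses RNA with a 5′ triphosphate, and was at 18.0, 14.2, 14.2, 22.8 and 16.9 TPM in saline libraries 1 to 5 and 15.4, 16.4, 14.6, 14.9 and 17.1 TPM in rmPRL libraries 1 to 5. Dhx58, the helicase LGP2 that modulates both sensors, was at 6.28, 2.96, 2.91, 6.06 and 3.94 TPM in saline libraries 1 to 5 and 3.90, 4.19, 3.57, 3.23 and 4.25 TPM in rmPRL libraries 1 to 5. For both genes saline libraries 1 and 4 were high and saline libraries 2 and 3 were the lowest or close to it (log2 differences -0.11 and -0.12, limma adjusted p = 0.648 and 0.761). Eif2ak2, the kinase PKR that halts translation on double-stranded RNA, was at 20.5, 18.7, 18.9, 30.8 and 21.5 TPM in saline libraries 1 to 5 and 20.3, 18.9, 21.9, 19.1 and 24.5 TPM in rmPRL libraries 1 to 5. Only saline library 4 stood out for Eif2ak2, at 1.52 times the median of the others, and without it the sign of the difference turned, from -0.057 to 0.065. Ddx60, a helicase linked to RIG-I signalling, was at 2.07 ± 1.04 TPM over the saline libraries and 1.60 ± 0.303 TPM over the rmPRL libraries (SD, n = 5, log2 difference -0.19, SE 0.187, limma adjusted p = 0.611), and Zbp1, a sensor of Z-form nucleic acid, at 2.95 ± 1.01 TPM over the saline libraries and 2.96 ± 0.583 TPM over the rmPRL libraries (SD, n = 5, log2 difference 0.032, SE 0.180, limma adjusted p = 0.943). Of the 6 sensors, 5 had lower means in rmPRL, also under the 3 other scalings, and 4 without saline library 4.

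Rsad2 and Cmpk2 are neighbours on opposite strands of chromosome 12, and both act on nucleotides: Rsad2 (viperin) makes a chain-terminating form of CTP, and Cmpk2 is a mitochondrial kinase of CMP and UMP. Rsad2 was at 4.88, 5.43, 5.03, 6.68 and 5.13 TPM in saline libraries 1 to 5 and 4.71, 4.58, 4.87, 5.07 and 4.84 TPM in rmPRL libraries 1 to 5. It was highest in saline library 4 and close to even elsewhere (log2 difference -0.14, SE 0.0907, limma adjusted p = 0.443). Cmpk2 was at 28.0, 33.2, 37.4, 33.7 and 35.0 TPM in saline libraries 1 to 5 and 31.1, 30.3, 32.5, 31.4 and 31.3 TPM in rmPRL libraries 1 to 5. Like Usp18, it was highest in saline library 3 and lowest in saline library 1 (log2 difference -0.087, SE 0.0704, limma adjusted p = 0.545). Its TPM was 5.04 to 7.43 times that of Rsad2.

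Bst2 (tetherin) holds budding virus at the cell surface and is also a surface marker of plasmacytoid dendritic cells in the mouse (ENSMUSG00000046718.8, GRCm38 chromosome 8, 71534255 to 71537456, minus strand). It was at 204, 93.9, 113, 185 and 153 TPM in saline libraries 1 to 5 and 133, 205, 150.4, 152 and 186 TPM in rmPRL libraries 1 to 5. Saline library 1 and rmPRL library 2 were the highest, and saline libraries 2 and 3 lay below every rmPRL library. The mean was higher in rmPRL by 0.18 on the log2 scale, where the 95% interval was -0.28 to 0.64 and the limma adjusted p 0.671. Trim30a, a mouse regulator of inflammatory signalling, was at 5.17 ± 1.31 TPM over the saline libraries and 5.60 ± 0.801 TPM over the rmPRL libraries (SD, n = 5), and Xaf1, which promotes cell death, at 38.7 ± 7.22 TPM over the saline libraries and 35.7 ± 3.64 TPM over the rmPRL libraries (SD, n = 5), with limma adjusted p of 0.715 and 0.677.

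Parp14 and Parp9 are mono-ADP-ribosyltransferase family members whose genes lie close together on chromosome 16. Parp14 was at 10.9, 11.9, 10.8, 14.4 and 13.2 TPM in saline libraries 1 to 5 and 10.2, 9.44, 11.2, 8.26 and 10.5 TPM in rmPRL libraries 1 to 5. Saline library 4 was highest and rmPRL library 4 lowest, and rmPRL library 3 was the single rmPRL value above the lowest saline values. The means were 12.3 ± 1.55 TPM over the saline libraries and 9.91 ± 1.11 TPM over the rmPRL libraries (SD, n = 5, log2 difference -0.28, SE 0.0997, limma adjusted p = 0.238). Parp9 was at 17.8, 18.1, 15.0, 19.8 and 17.1 TPM in saline libraries 1 to 5 and 15.7, 17.2, 15.4, 15.0 and 15.0 TPM in rmPRL libraries 1 to 5, with saline library 4 highest and groups that overlapped (log2 difference -0.15, SE 0.0745, limma adjusted p = 0.342). Parp9 shares 458 of its 4872 exonic bases with Dtx3l on the opposite strand, and whether counting used strand is not given in the sources used here, so its level is uncertain. Smaller or noncoding overlaps on the opposite strand touch exons of Usp18, Oasl1, Irf7, Dhx58, Eif2ak2 and Ifi35 (for Ifi35, 290 of 1727 bases with Gm11626). Same-strand ones touch Herc6 (1269 of 9292 bases with Gm45193), Rtp4 (296 of 2131 bases with Gm45338), Irf9 and Parp14. Counting by strand does not separate reads in same-strand overlaps, so the levels of Herc6 and Rtp4 are also uncertain.

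The other interferon-induced members were Rtp4, Ifi44 and Ifi35. Rtp4, a chaperone of receptor transport, was at 15.9 ± 5.25 TPM over the saline libraries and 14.5 ± 2.11 TPM over the rmPRL libraries (SD, n = 5) and Ifi44, a cytoplasmic antiviral protein, at 4.10 ± 2.40 TPM over the saline libraries and 3.68 ± 0.633 TPM over the rmPRL libraries (SD, n = 5). For each of these genes saline library 4 was highest, at 1.80 and 2.22 times the median of the other libraries, and without it the difference turned positive, at 0.067 and 0.21. Ifi35 was the most even member, at 38.3 ± 1.91 TPM over the saline libraries and 37.9 ± 2.39 TPM over the rmPRL libraries (SD, n = 5), and 1.18 times from its lowest to its highest library (log2 difference -0.017, SE 0.0572, limma adjusted p = 0.897). These 3 genes, with Parp9 and Parp14, had lower means in rmPRL with TPM as deposited; after TMM scaling Ifi35 and Ifi44 were on the higher side.

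Genes upstream of the response were read from lists chosen with earlier results known. Of 21 interferon genes, 12 were listed at 0 in every library and 20 were under 1 TPM in every library, so none was tested. Ifne was the exception, at 1.62, 0.257, 0.772, 0.220 and 0.782 TPM in saline libraries 1 to 5 and 0.984, 0.463, 0.789, 0.515 and 0.146 TPM in rmPRL libraries 1 to 5. It was highest in saline library 1, and in saline library 4, the highest for the members, it was among the lowest values. At levels this low the order of the libraries is uncertain, and the part of Ifne in the members' levels was not tested.

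Of 8 receptor and kinase transcripts tested, 7 had lower and 1 a higher mean in rmPRL (5 and 3 after TMM scaling). The median log2 difference was -0.10. At an unadjusted p under 0.05, 2 were lower, and 0 passed over all genes (limma). Among all genes tested, 9.91% were lower at that unadjusted level and 56.5% were lower by sign (49.7% after TMM scaling). The receptor chains Ifnar1, at 30.1 ± 0.928 TPM over the saline libraries and 29.5 ± 1.11 TPM over the rmPRL libraries (SD, n = 5), and Ifnar2, at 47.0 ± 6.57 TPM over the saline libraries and 44.8 ± 4.53 TPM over the rmPRL libraries (SD, n = 5), did not pass the threshold (limma adjusted p = 0.801 and 0.764). Tyk2, the kinase bound to Ifnar1, was at 15.5, 18.7, 17.0, 16.7 and 17.7 TPM in saline libraries 1 to 5 and 14.3, 13.9, 14.6, 15.0 and 14.9 TPM in rmPRL libraries 1 to 5. All rmPRL libraries lay below all saline libraries for Tyk2, an order that held for 1.57% of all genes tested. Tyk2 missed the threshold (log2 difference -0.22, SE 0.0603, limma adjusted p = 0.193). Il10rb, a chain of the interferon-lambda receptor, and Ifngr2, of the interferon-gamma receptor, had log2 differences of -0.19 and -0.16 (limma adjusted p = 0.248 and 0.356).

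Nucleic acid sensing genes upstream of interferon were balanced. Of 12 tested, the mean in rmPRL was higher for 6 and lower for 6 (7 and 5 after TMM scaling), with a median log2 difference of 0.0078, and 0 passed over all genes, while 2 were lower at an unadjusted p under 0.05. Those 2 were Tlr3, the endosomal receptor of double-stranded RNA, at 24.6 ± 1.43 TPM over the saline libraries and 19.2 ± 3.41 TPM over the rmPRL libraries (SD, n = 5, log2 difference -0.36, SE 0.106, limma adjusted p = 0.202), and Ikbke, a kinase that activates Irf3, at 51.9 ± 6.17 TPM over the saline libraries and 43.5 ± 3.40 TPM over the rmPRL libraries (SD, n = 5, log2 difference -0.25, SE 0.0854, limma adjusted p = 0.233). Tlr3 was lowest in rmPRL libraries 2, 4 and 5, at 15.2, 17.4 and 17.9 TPM, the libraries in which the summed epithelial markers were lowest, at 6840.2, 7424 and 7661 TPM, and the part of epithelial content in it was not tested. Irf3 had a log2 difference of -0.11 (limma adjusted p = 0.355).

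Of 10 tested genes that restrain interferon signalling, 4 had a higher and 6 a lower mean in rmPRL (5 and 5 after quantile normalization). The median log2 difference was -0.052. In that list 0 passed over all genes and 0 had an unadjusted p under 0.05 (limma), against 16.0% of all genes tested. The smallest p in that list were those of Nlrx1, a mitochondrial inhibitor of antiviral signalling, Adar, an RNA editing enzyme that masks the cell's own double-stranded RNA, and Ptpn6, a phosphatase of cytokine receptors. Their log2 differences were -0.12, -0.13 and -0.14 (limma adjusted p = 0.330, 0.352 and 0.356). For Nlrx1 all rmPRL libraries lay below all saline libraries, an order that held for 1.57% of all genes tested.

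A further 54 interferon-stimulated genes that are not members were read in the same fit. Of the 52 tested, 19 had a higher and 33 a lower mean in rmPRL (23 and 29 after TMM scaling). The median log2 difference was -0.040. At an unadjusted p under 0.05, 9 were lower and 0 higher, and 0 passed over all genes (limma). Among all genes tested, 9.91% were lower and 6.14% higher at that unadjusted level, and 56.5% were lower by sign (49.7% after TMM scaling). The smallest p were those of Irgm2, an immunity-related GTPase, Sp100, a nuclear body protein, and Apobec3, a cytidine deaminase against retroviruses. Sp100 was at 63.4, 101, 67.2, 63.9 and 72.2 TPM in saline libraries 1 to 5 and 61.7, 50.9, 58.2, 58.3 and 42.8 TPM in rmPRL libraries 1 to 5. All rmPRL libraries lay below all saline libraries, an order that held for 1.57% of all genes tested. Saline library 2 was high for Sp100 (log2 difference -0.42, SE 0.136, limma adjusted p = 0.218). Apobec3 was at 87.0 ± 16.5 TPM over the saline libraries and 66.9 ± 6.11 TPM over the rmPRL libraries (SD, n = 5) and Irgm2 at 20.9 ± 1.99 TPM over the saline libraries and 17.7 ± 0.858 TPM over the rmPRL libraries (SD, n = 5), with limma adjusted p of 0.224 and 0.210. Of these 54 genes, 12 were highest in saline library 4 and 11 in saline library 1, where 21 and 6 of the 33 members were. Among all genes tested, 9.29% and 7.95% were highest in those libraries. The mean log2 deviation of this list was 0.11 in saline library 4, 0.14 in saline library 1 and 0.17 in rmPRL library 2. For the members it was 0.48, 0.17 and 0.12.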

How the data were processed

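The authors deposited TPM values for 54256 Ensembl gene identifiers in 10 libraries of mouse infundibulum, 5 given saline and 5 given rmPRL. Per the labels' protocols, Trizol and RNeasy columns yielded the RNA and a stranded mRNA kit the libraries. Per the submitters' processing notes and the series text, FastQC served for quality checks, Trimmomatic for trimming (quality 15, minimum length 20 bases), HISAT2 and SAMtools for alignment (mm10), featureCounts for counting and DESeq2 for the authors' comparison. How the scaled TPM were computed, with which annotation and tool versions, is not given in the sources used here.

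Because TPM carry no depth, count models were not used. The 16131 genes that reached 1 TPM in 5 or more libraries were fitted as log2(TPM + 1) in limma 3.58.1 (R 4.3.3; trend and robust estimation, group as the only term), two-sided, with Benjamini-Hochberg adjustment over all of them and a threshold of 0.05. Log2 differences understate those of low genes. Tmem173, on the sensing list, was matched by its identifier. Coordinates, overlaps and shared 100-base windows are from GENCODE vM21 (GRCm38, which mm10 denotes), and promoters are from RefSeq. The fit was checked on simulated data with independent noise and changes larger than the difference of any tested member. That check does not cover differences of the members' size.

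Values in every library are given for members with the 5 smallest p, for those whose groups did not overlap and for a set of representatives of each role; 3 genes with the smallest p are named from each other tested list, besides Ifne, Ifnar1 and Ifnar2. A further pathway gene is not reported here. The members, lists and rules were chosen with earlier results of these data known. Deviations of same-numbered libraries were correlated, and the libraries were not treated as paired in the main fit. Alternatives were other pseudocounts, filters and scalings, array weights, plain limma, the replicate number as a block and leaving out each library.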

Additional observations from a re-analysis of the deposited data

Results flagged for a closer look

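Each group of 5 libraries was examined for a library far from the other 4, by the gap to its nearest neighbour as a share of the group's range (above 0.71). Over 96 groups, 11 were picked out. Chance gives about 1 in 20 for independent groups of normally distributed values. The members varied together by library, so the 11 cannot be judged against that rate. Saline library 4 was far above the rest of its group in 5 members: Herc6 (6.46 TPM against 3.86 to 4.36 TPM), Ifit1 (9.51 TPM against 2.18 to 4.09 TPM), Oas3 (0.719 TPM against 0.0593 to 0.189 TPM), Ddx60 (3.90 TPM against 1.43 to 1.79 TPM) and Eif2ak2 (30.8 TPM against 18.7 to 21.5 TPM). In rmPRL, library 2, labelled diestrus, was far above the rest in 3 members: Ifit3b (3.16 TPM against 2.11 to 2.24 TPM), Oas2 (3.80 TPM against 2.01 to 2.48 TPM) and Irf7 (18.7 TPM against 10.4 to 12.8 TPM). These are also the libraries with high luteal and theca markers, and the part of those markers was not tested.

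Outside the members, saline library 2 was far below the rest for Ifngr2 (25.5 TPM against 29.6 to 30.9 TPM) and far above it for Sp100 (101 TPM against 63.4 to 72.2 TPM). Irgm2 was far above the rest in rmPRL library 1 (19.2 TPM against 17.0 to 17.6 TPM).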

How the results depend on the processing

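The count of members past the threshold was 0 in all 21 alternatives, and the lowest limma adjusted p of any member or other named gene was 0.0529. In the main fit 3 of 32 tested members had an unadjusted p under 0.05 (limma), and 2 to 5 members did over the alternatives. The median log2 difference of the members ran from -0.17 (without saline library 3) to -0.0077 (without saline library 4), all below 0. Over all genes the count past the threshold was 4, and it was 0 with no filter (1360 higher and 1916 lower at an unadjusted p under 0.05), 2 with the replicate number as a block, 270 with array weights, and 1 to 17 with single libraries left out (1 without saline library 3 or 5 or rmPRL library 2 or 5, 2 without saline library 1 or rmPRL library 4, 7 without rmPRL library 3, 17 without rmPRL library 1). Deviations of same-numbered libraries had correlations from -0.25 to 0.11, which cannot show whether the libraries were collected as pairs. The replicate number as a block changed no call of a member.

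Of 46 members and named genes, 32 kept their sign in every alternative. With single libraries left out these changed sign, with log2 differences in the ranges given: Eif2ak2 (-0.11 to 0.065), Herc6 (-0.15 to 0.029), Ifi35 (-0.042 to 0.010), Ifi44 (-0.20 to 0.21), Ifit1 (-0.20 to 0.24), Ifit2 (-0.14 to 0.091), Ifit3 (-0.34 to 0.062), Isg15 (-0.18 to 0.31), Mx2 (-0.086 to 4.43e-05), Oas1a (-0.18 to 0.072), Oas2 (-0.23 to 0.031), Rtp4 (-0.19 to 0.067), Zbp1 (-0.078 to 0.14). The sign also changed after TMM scaling for Ifit2 (0.016), Ifi44 (0.00410), Ifi35 (0.012), Ifnar1 (0.00321), after quantile normalization for Ifit2 (0.00131), Ifi35 (0.00653), and after rescaling without mitochondrial and the 50 highest genes for Ifit2 (0.012), Ifi35 (0.00538). It changed with array weights for Ifit2 (0.017), Mx2 (0.020), Ifi44 (0.00504), with a pseudocount of 0.1 for Ifi44 (0.00509), and without saline library 4 and rmPRL library 2, an alternative chosen after seeing the data, for Ifit1 (0.11), Oas1a (0.012), Eif2ak2 (0.10), Ifi44 (0.15). The cause was not tested. Depth is unknown, so the precision of low members such as Oas3 and Mx1 cannot be given.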
